A study of Mus musculus with 10 samples.

Results

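Messenger RNA of the cyclin-dependent kinases Cdk1, Cdk2, Cdk4 and Cdk6, the CDK-binding proteins Cks1b and Cks2, the phosphatases Cdc25a, Cdc25b and Cdc25c, and the kinase Wee1 was measured in serum-starved NIH3T3 cells without and with LIN37. The 10 genes were taken by name, and all 10 are among the 45232 entries of the table. NIH3T3 is an immortal mouse embryonic fibroblast line. Its Lin37 gene had been mutated with a CRISPR nickase at the intron 3/exon 4 boundary in clone 411-27, called the exon 4 clone here, and at the intron 5/exon 6 boundary in clone 632-2, the exon 6 clone. Each line is a single clone, and KO and rescue cells of a clone carry the same Lin37 mutation. KO cells held an inducible episome that expresses luciferase, rescue cells one that expresses wild-type Lin37, and both were kept without serum for 60 h. The exon 4 clone gave 2 KO and 2 rescue libraries. The exon 6 clone gave 3 and 3, of which libraries 2 and 3 of each are technical replicates of 1 culture and were averaged, so that 4 KO and 4 rescue replicates were compared. Nothing in the labels says how independent the cultures of a clone were, so p-values measure the spread between these replicates.

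CDK1 is the kinase that drives mitosis with cyclins A and B, while CDK2 acts with cyclins E and A around DNA replication, and CDK4 and CDK6 act with D-type cyclins early in G1. CKS proteins are small CDK subunits that help bind phosphorylated substrates, WEE1 holds CDK1 inactive by tyrosine phosphorylation, and CDC25 phosphatases remove that phosphate. LIN37 is a subunit of the DREAM complex, a repressor of cell cycle genes in resting cells that contacts promoters through a cell cycle genes homology region (CHR) and, through E2F4, at E2F sites.

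The promoter letters are shown first, because CHR and E2F letters are those through which DREAM is known to bind. The stretches are those of Cdk1, of both CKS genes, and of Cdk2 and Cdk4 as other kinases. TTTGAA was found in 2 of the 8 members with a promoter entry, beside 17.9% of all promoter windows, so nothing about the members is read from its count. The 5 stretches below span bases -150 to -1 before the RefSeq start (GRCm38.p6, the assembly of mm10), 5′ to 3′ on the gene's strand. Capitals mark the CHR letters TTTGAA or the variant TTCGAA and the E2F letters TTCCCGC or else TTCGCGC or else TTGCCGC or else TTGGCGC, on either strand.
Cdk1 (chr10:69352913-69353062, minus strand): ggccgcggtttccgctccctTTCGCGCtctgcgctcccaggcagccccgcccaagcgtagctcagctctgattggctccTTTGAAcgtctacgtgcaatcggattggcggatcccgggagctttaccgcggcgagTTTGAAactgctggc
Cks1b (chr3:89418292-89418441, minus strand): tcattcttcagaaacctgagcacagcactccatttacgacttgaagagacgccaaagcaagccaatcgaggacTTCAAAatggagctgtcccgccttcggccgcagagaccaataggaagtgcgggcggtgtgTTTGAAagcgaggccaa
Cks2 (chr13:51645082-51645231, plus strand): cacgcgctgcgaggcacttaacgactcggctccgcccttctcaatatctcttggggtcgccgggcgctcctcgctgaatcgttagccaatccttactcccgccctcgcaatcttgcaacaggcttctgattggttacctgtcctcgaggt
Cdk2 (chr10:128705052-128705201, minus strand): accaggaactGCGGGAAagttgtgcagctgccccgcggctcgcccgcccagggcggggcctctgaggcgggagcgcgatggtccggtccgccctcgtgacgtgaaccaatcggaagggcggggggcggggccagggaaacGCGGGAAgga
Cdk4 (chr10:127063385-127063534, plus strand): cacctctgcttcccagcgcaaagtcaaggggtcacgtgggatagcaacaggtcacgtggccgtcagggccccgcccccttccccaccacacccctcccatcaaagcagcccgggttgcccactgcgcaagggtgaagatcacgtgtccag

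In windows of 300 bases, from 250 before to 50 after the start, 8 of the 10 members had an entry. Cdk1 held TTTGAA at -71 and -15, and Cks1b held it at -77 on the opposite strand and at -17. Cdc25b held the variant TTCGAA at +8, past the start and so in no printed stretch. Of the 32851 promoter windows 17.9% held TTTGAA, and TTCGAA occurred in 1 of 8 members and in 1.56%. The E2F letters occurred in 3 of 8 members, Cdk1, Cdk2 and Cdc25a, and in 9.57% of windows, where the matches of Cdc25a are on opposite strands and overlap. Neither kind was found in the windows of Cks2, Cdk4 and Cdk6. CCAAT, on either strand, occurred in 6 of 8 members, all but Cdk4 and Cdk6, and in 37.4% of windows. The RefSeq start lies 2408 bases inside the GENCODE gene for Cdk6, 92 for Cks1b and 26 for Cdk1, so for these genes the window depends on the annotation, and bases around the outer GENCODE start of Cdk6 were not searched. For the other members with an entry the starts differ by at most 20 bases.

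The table gives RPKM, reads per kilobase of gene scaled to the size of the library, which hold no read counts, so the depth of the libraries is unknown. Values below are RPKM after rescaling each library to a common median over 8523 genes, with factors between 0.324 and 2.70. The factor of each KO library exceeded that of the same-numbered rescue library, so without rescaling the median log2 change of all genes was 0.64, and with it -0.03. Lin37 itself lay between 0.268 and 0.417 RPKM in the KO libraries and between 2.12 and 5.11 in the rescue libraries, where mutated and episomal transcripts cannot be told apart. Of 10 fibroblast markers none was called, and collagen gene Col1a1 averaged 190 RPKM in KO and 191 in rescue, whereas Lum averaged 0.0871 and 0.139. The largest change among them was in Pdgfra, a growth factor receptor gene, at 34.3 RPKM in KO and 45.1 in rescue of the exon 4 clone and 20.5 and 30.1 in the exon 6 clone (log2 change -0.47, limma unadjusted p = 0.00233, adjusted p = 0.102). Of 10 markers of other cell types 2 were high enough to be tested and 0 were called.

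Without LIN37, 5 of the 10 members were higher: Cdk1, Cks1b, Cks2, Cdc25b and Cdc25c. Cdk2, Cdk4, Cdk6, Cdc25a and Wee1 did not pass the test, and 0 members were lower. Over all 16866 genes tested, 271 (1.61%) were called higher and 14 (0.083%) lower, at an adjusted p under 0.05 in limma with Benjamini-Hochberg adjustment. The median log2 change was 0.69 over the 10 members and -0.03 over all genes. Fold changes on the log2 scale are of RPKM + 0.5, which understates the change of low genes. In bulk RNA, a larger number of cells that express a gene and more RNA per cell cannot be told apart.

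**Figure D1:**
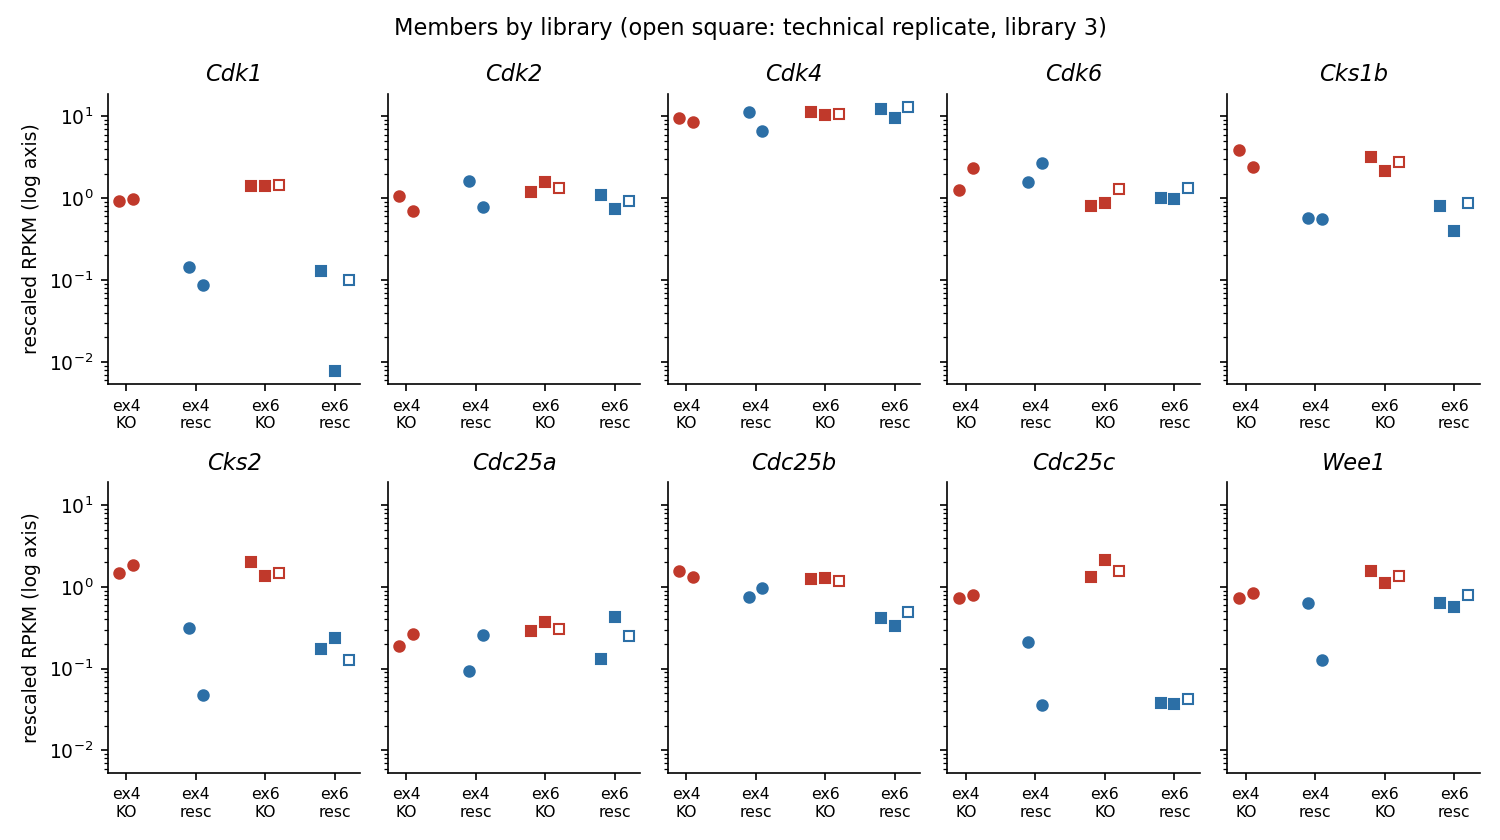
Rescaled RPKM (log axis) of the 10 members in each of the 10 libraries, KO in red and rescue in blue, circles for the exon 4 clone and squares for the exon 6 clone, with library 3 as open squares. Cdk1 lies between 0.930 and 1.46 in KO and between 0.00774 and 0.143 in rescue, while Cdk2, Cdk4 and Cdk6 overlap between KO and rescue.

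Among the kinases only Cdk1 passed the test. Its level was 0.930 and 0.980 RPKM in the exon 4 KO libraries against 0.143 and 0.0863 in rescue, and 1.41, 1.42 and 1.46 in the exon 6 KO libraries against 0.130, 0.00774 and 0.0999 in rescue. Each KO library thus lay above each rescue library, and the lowest and the last of the exon 6 rescue values are technical replicates of 1 culture. Over replicates Cdk1 averaged 1.19 ± 0.271 RPKM in KO and 0.103 ± 0.0409 in rescue (SD, n = 4 each), a ratio of 11.5. The log2 change was 1.47 (SE 0.12, limma adjusted p = 0.000408).

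Cdk2 read 1.05 and 0.696 RPKM without LIN37 and 1.61 and 0.792 with it for exon 4, while the exon 6 libraries gave 1.21, 1.57 and 1.34 without LIN37 and 1.10, 0.736 and 0.925 with it. Its groups overlapped, and the log2 change was 0.02 (95% interval -0.42 to 0.47, limma adjusted p = 0.985). Cdk4, the most abundant member in both groups, read 9.52 and 8.49 RPKM without LIN37 and 11.4 and 6.62 with it for exon 4, while the exon 6 libraries gave 11.3, 10.5 and 10.8 without LIN37 and 12.4, 9.55 and 13.2 with it. These values overlapped as well, with a log2 change of -0.03 (-0.39 to 0.32, limma adjusted p = 0.967). Cdk6 read 1.27 and 2.32 RPKM without LIN37 and 1.57 and 2.72 with it for exon 4, while the exon 6 libraries gave 0.797, 0.871 and 1.30 without LIN37 and 1.01, 0.981 and 1.34 with it. Its ranges overlapped between KO and rescue, while all 4 same-numbered pairs of replicates gave a value below 0, with a mean of -0.18 ± 0.074 (SD, n = 4). The change did not pass the test (95% interval -0.60 to 0.24, limma adjusted p = 0.842), nor did it with the pairs as a block (-0.38 to 0.03, limma adjusted p = 0.448). The unblocked intervals of Cdk2, Cdk4 and Cdk6 end at 0.47 or lower. Cdk4 shares 641 exon bases with Tspan31 on the opposite strand (8.41 to 22.0 RPKM), and whether the counting used strand is not given in the sources used here.

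The change of Cdk1 exceeded that of each other kinase in all 4 same-numbered pairs of replicates. The difference of log2 change was 1.45 ± 0.14 against Cdk2, 1.51 ± 0.40 against Cdk4 and 1.65 ± 0.24 against Cdk6 (SD over 4 pairs). With genotype permuted within each clone, the exact two-sided permutation p was 0.0556 for each, the smallest that 36 arrangements can give, and 0.0648 after adjustment over the 7 pairs of genes compared. With genotype permuted over all 8 replicates after centring each clone, the permutation p was 0.0286, the smallest of 70 arrangements, and 0.0333 adjusted. This second test moves centred values between clones, so its p is not strictly exact. Neither test uses the pairs. In level, Cdk1 made up 7.28% to 9.85% of the summed RPKM of the 4 kinases in KO replicates and 0.402% to 0.969% in rescue replicates. Cdk1 and Cdk2 overlapped in KO replicates, at 0.930 to 1.44 and 0.696 to 1.45 RPKM, whereas in rescue Cdk1 did not exceed 0.143 and Cdk2 was at least 0.792.

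**Figure D2:**
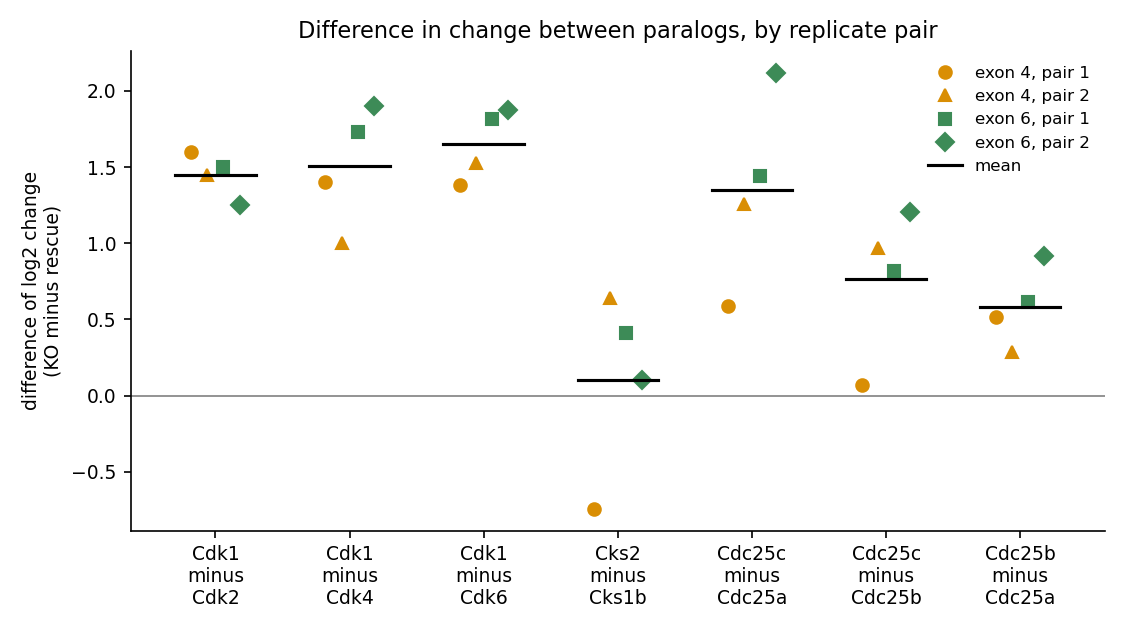
Difference in log2 change (KO minus rescue) between 2 members of a family in each same-numbered pair of replicates, with the mean as a bar. Cdk1 minus Cdk2, Cdk4 and Cdk6 lies between 1.00 and 1.90 in all pairs, and Cks2 minus Cks1b falls on both sides of 0.

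Both CKS genes were higher. Cks1b read 3.87 and 2.40 RPKM without LIN37 and 0.582 and 0.562 with it for exon 4, while the exon 6 libraries gave 3.20, 2.15 and 2.75 without LIN37 and 0.812, 0.404 and 0.874 with it. Its log2 change was 1.58 (SE 0.15, limma adjusted p = 0.000951), with no overlap between KO and rescue. Cks2 read 1.46 and 1.83 RPKM without LIN37 and 0.313 and 0.0471 with it for exon 4, while the exon 6 libraries gave 2.02, 1.34 and 1.45 without LIN37 and 0.173, 0.239 and 0.127 with it. It did not overlap either, and the log2 change was 1.69 (SE 0.15, limma adjusted p = 0.000701). The changes of Cks2 and Cks1b differed by 0.10 ± 0.61 (SD over 4 pairs, exact permutation p = 0.611), less than the spread between pairs. The size of this difference depends on the constant added to RPKM. Mean RPKM in KO was 9.37 times that in rescue for Cks2 and 4.59 times for Cks1b. With a constant of 0.1 the log2 change was 2.75 for Cks2 and 2.02 for Cks1b. Both genes share sequence with other loci: 31.7% of the 31-base stretches of Cks2 and 17.3% of those of Cks1b occur in another annotated gene. Such sharing is not particular to them: it was 19.5% for Cdk4, 13.3% for Cdc25c, 5.19% for Cdk6 and at most 1.93% for the other members. The processed pseudogene Gm15452, all of whose stretches occur in Cks2, averaged 6.74 ± 1.14 RPKM in KO and 0.875 ± 0.186 in rescue (SD, n = 4), and reads of the pair may have been split between them.

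The 3 CDC25 genes gave changes of different size, and the permutation test within clones cannot reach a p under 0.05 whatever the difference. Cdc25c read 0.736 and 0.783 RPKM without LIN37 and 0.209 and 0.0362 with it for exon 4, while the exon 6 libraries gave 1.33, 2.13 and 1.57 without LIN37 and 0.0381, 0.0369 and 0.0429 with it. No rescue library reached a KO library, and the log2 change was 1.49 (SE 0.20, limma adjusted p = 0.0055). Cdc25b read 1.56 and 1.30 RPKM without LIN37 and 0.741 and 0.973 with it for exon 4, while the exon 6 libraries gave 1.26, 1.27 and 1.18 without LIN37 and 0.414, 0.331 and 0.497 with it. It rose by less, with a log2 change of 0.72 (SE 0.12, limma adjusted p = 0.0174). Leaving out 1 replicate raised this adjusted p to between 0.0543 and 0.0983 for replicate 1 of the exon 4 KO, replicate 1 of the exon 4 rescue and each of the 4 exon 6 replicates. Cdc25a, the form known to act also on CDK2 at the start of DNA replication, read 0.187 and 0.262 RPKM without LIN37 and 0.0928 and 0.261 with it for exon 4, while the exon 6 libraries gave 0.292, 0.370 and 0.304 without LIN37 and 0.132, 0.423 and 0.252 with it. Its groups overlapped, with a log2 change of 0.13 (95% interval -0.17 to 0.44, limma adjusted p = 0.826). The change of Cdc25c exceeded that of Cdc25a by 1.35 ± 0.63 and that of Cdc25b by 0.77 ± 0.49, and Cdc25b exceeded Cdc25a by 0.58 ± 0.26 (SD over 4 pairs, each with an exact permutation p of 0.0556 within clones). That p is the smallest that 36 arrangements can give, and it was 0.0648 after adjustment. Permuting over all 8 replicates after centring each clone, which is not strictly exact, gave each a permutation p of 0.0286. This is the smallest of 70 arrangements, and it was 0.0333 adjusted. In pair 1 of the exon 4 clone Cdc25c exceeded Cdc25b by only 0.071. The size of these differences depends on the constant added to RPKM. Mean RPKM in KO was 14.5 times that in rescue for Cdc25c, 2.10 times for Cdc25b and 1.31 times for Cdc25a. The ratio of Cdc25c rests on a rescue mean of only 0.0807 RPKM. Cdc25c shares 623 exon bases with Gm3550 on the opposite strand, which stood between 0.0523 and 0.272 RPKM.

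Wee1, the kinase that opposes CDC25, read 0.733 and 0.848 RPKM without LIN37 and 0.632 and 0.128 with it for exon 4, while the exon 6 libraries gave 1.55, 1.10 and 1.37 without LIN37 and 0.628, 0.571 and 0.805 with it. Averaged over technical replicates, each KO replicate lay above each rescue replicate, as for 6 of the 10 members and 3.11% of all genes tested. Among single libraries, the exon 6 rescue value of 0.805 exceeded the exon 4 KO value of 0.733. The log2 change of 0.66 (SE 0.17) missed the threshold, with a limma adjusted p of 0.162, which fell to 0.0162 without replicate 1 of the exon 4 rescue.

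**Figure D3:**
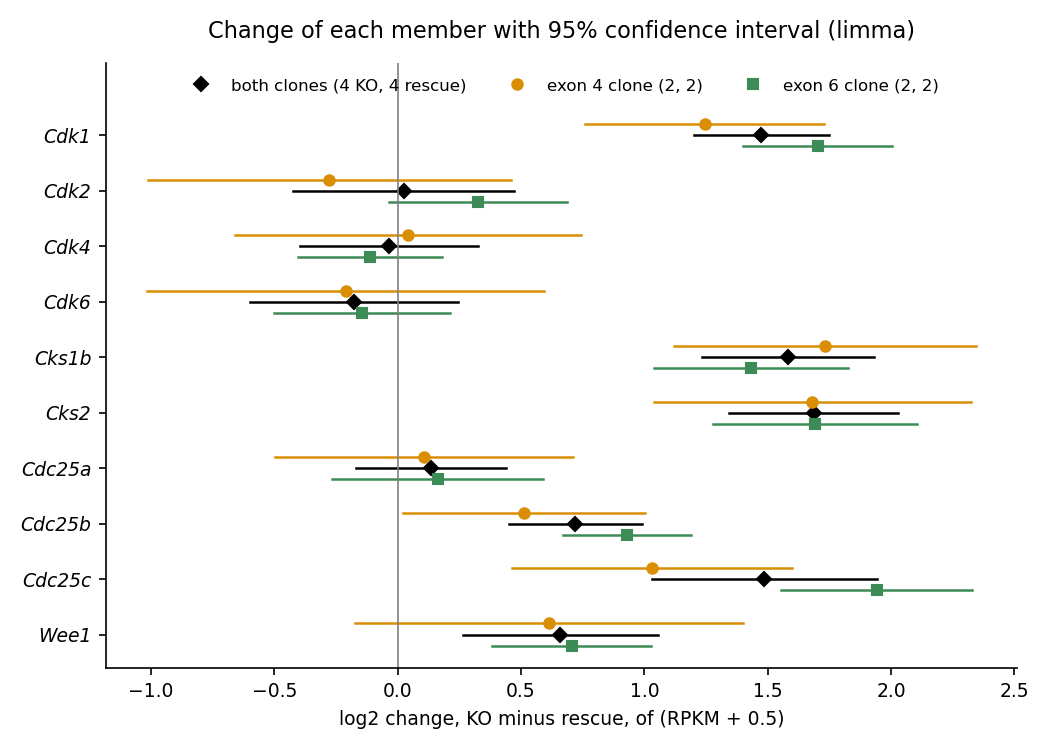
Log2 change (KO minus rescue, of RPKM + 0.5) of each member with its 95% confidence interval from limma, over both clones (diamonds) and in each clone alone. The intervals of Cdk1, Cks1b, Cks2, Cdc25b and Cdc25c lie above 0 in all 3 fits, and those of Cdk2, Cdk4, Cdk6 and Cdc25a include 0. The interval of Wee1 over both clones lies above 0 (limma unadjusted p = 0.0046, adjusted p = 0.162).

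Within the exon 6 clone the same 5 members were called higher, beside 1.24% of 15301 genes higher and 0.0654% lower. The log2 changes there were 1.70 for Cdk1, 1.43 for Cks1b, 1.69 for Cks2, 0.93 for Cdc25b and 1.94 for Cdc25c (limma adjusted p between 0.0104 and 0.0242). Leaving out any 1 of the 4 exon 6 replicates left 0 or 1 of these calls and 0 to 69 genes called higher in all, and with same-numbered replicates as a block Cdc25b had an adjusted p of 0.0562. Within the exon 4 clone 0 members and 0 genes were called in limma. At an unadjusted p under 0.05 in limma the same 5 members were higher there, beside 2.27% of 18751 genes (426, and 342 lower), with log2 changes of 1.24 for Cdk1, 1.73 for Cks1b, 1.68 for Cks2, 0.51 for Cdc25b and 1.03 for Cdc25c. The difference between the clones was called for 0 members and 0 of 16866 genes in limma (434 and 251 genes in the 2 directions at an unadjusted p under 0.05). It was 0.91 for Cdc25c and 0.46 for Cdk1, higher in the exon 6 clone, with unadjusted limma p-values of 0.00978 and 0.0439 and an adjusted p of 0.997 for both.

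The order of the levels also differed between the genotypes. In rescue, Cdk4 (10.5 ± 2.60 RPKM, SD, n = 4) was followed by Cdk6 (1.61 ± 0.773) and Cdk2 (1.08 ± 0.377), whose ranges overlap, then by Cks1b, Cdc25b and Wee1 between 0.519 and 0.649, and last by Cdc25a, Cks2, Cdk1 and Cdc25c between 0.0807 and 0.206, with overlapping ranges within both sets. In KO, Cdk4 (9.98 ± 1.23) was followed by Cks1b (2.98 ± 0.699) and Cks2 (1.68 ± 0.297), whose range overlaps those of the next genes, then by Cdk6, Cdc25b, Cdk1, Cdc25c, Cdk2 and Wee1, whose means lay between 1.09 and 1.37 and whose ranges overlap, and last by Cdc25a at 0.270 ± 0.0631. Among 21501 protein-coding genes Cdk1 stood at percentile 46.4 in rescue and 74.5 in KO, and Cdk4 at 98.2 and 98.1.

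Of 43 partners and regulators tested in 5 lists, which were drawn up with earlier results of these data known, 8 passed the test and all 8 were higher. Over all 16866 genes tested, 1.61% were called higher and 0.083% lower. Of 8 cyclins tested 2 rose, Ccna2 by 1.58 (SE 0.17) and Ccnb2 by 0.77 (SE 0.14) on the log2 scale (limma adjusted p = 0.00155 and 0.0277), both partners of CDK1. The D-type cyclins that partner CDK4 and CDK6 did not pass the test, with log2 changes of 0.28 for Ccnd1, -0.33 for Ccnd2 and -0.16 for Ccnd3, and their replicates overlapped. Ccne1 at 0.61 and Ccnb1 at 0.39 did not pass it either, although each KO replicate lay above each rescue replicate. Ccne1 averaged 0.6961 RPKM in KO and 0.2685 in rescue, and Ccnb1 0.2014 and 0.0328, low levels whose log2 change the added 0.5 understates. These 5 cyclins were named after their values were seen. Of 10 genes around WEE1, CDC25 and CKS, 5 rose: Pkmyt1, a second kinase that inhibits CDK1, by 1.86, the mitotic kinase gene Aurka by 1.49, the checkpoint kinase gene Chek2 by 1.45, the mitotic kinase gene Plk1 by 1.09 and Mastl, which restrains a phosphatase that opposes CDK1, by 0.89 (limma adjusted p between 0.000349 and 0.00513). Those that rose thus include genes of both inhibiting and promoting function. Of 5 CDK inhibitor genes tested 1 rose, Cdkn3, by 0.75 (limma adjusted p = 0.0151), which encodes a phosphatase that acts on CDKs. Its KO and rescue replicates overlapped only between clones. The lowest KO and highest rescue replicates were 0.311 and 0.0019 RPKM in the exon 4 clone, and 0.635 and 0.348 in the exon 6 clone. None of the 3 genes of the CDK-activating kinase passed the test, the largest value being 0.20 for Ccnh. None of 17 other CDK and CDK-like genes passed it, the largest being -0.59 (SE 0.50) for Cdk8.

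**Figure D4:**
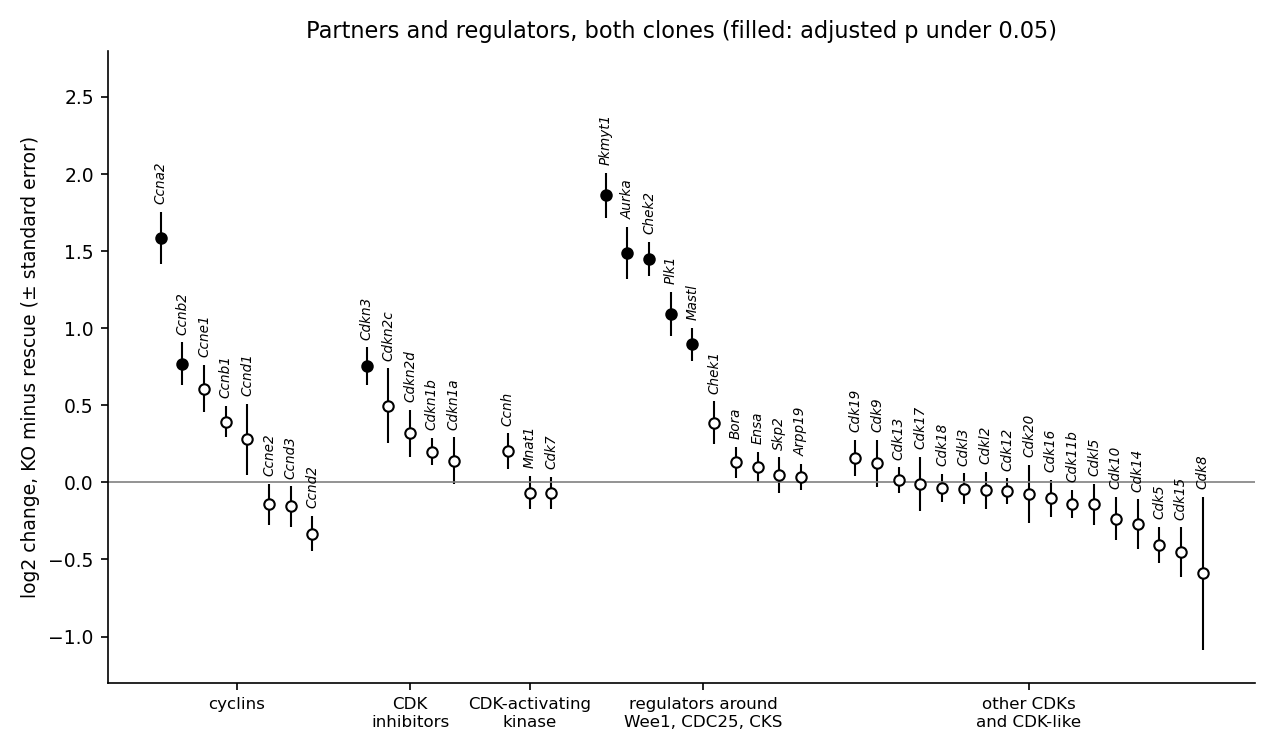
Log2 change (KO minus rescue, both clones) with its standard error for partners and regulators of the kinases, in 5 lists; filled points have an adjusted p under 0.05 in limma. The filled points are 2 cyclins, 1 CDK inhibitor and 5 regulators around Wee1, CDC25 and CKS, all above 0.

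The genes most like each kinase over the 8 replicates were sought among 7550 genes whose mean reached 1 RPKM, by Pearson's r of log2 values. For Cdk1 they were Pttg1, which encodes securin (r = 0.995), the processed pseudogene Gm8203 (0.987) and the transcription factor gene Foxm1 (0.987). The likest gene was Axin1 for Cdk2 (0.968), Use1 for Cdk4 (0.984) and Slu7 for Cdk6 (0.986). The replicates share clones and scaling factors, so these values describe likeness only.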

How the data were processed

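RNA of 10 libraries had been depleted of ribosomal RNA, made into libraries with a NuGEN FFPE kit and sequenced in pairs. Per the methods, the authors trimmed reads with cutadapt, aligned them to mm10 with segemehl and counted genes with rnacounter against GENCODE; the labels also name Picard 1.89. The deposited unit is RPKM per gene. Whole reads were not recovered: 28.1% to 37.5% of low values lay within 2% of whole steps, so no count test was run. Here 44585 of 45232 entries were named from GENCODE M21 (GRCm38), libraries were rescaled by the median of ratios over genes averaging 1 RPKM or more with no 0, and technical replicates were averaged. limma 3.58.1 in R 4.3.3 tested log2(RPKM + 0.5) with trend and a clone covariate, for genes averaging 0.1 RPKM or more. The script was tested on simulated data. Named genes are the 10 members, the called genes and the largest change of each list of partners and regulators, genes that share sequence with a member or overlap it, and the likest genes of the kinases; 5 further cyclins and 3 fibroblast markers were named after their values were seen. Members and lists were chosen with earlier results of these data known. Deviations of same-numbered KO and rescue replicates correlated at 0.477 (exon 4) and at 0.360 (exon 6) over 7550 genes. This was taken as pairing, although the labels do not say what a number marks and both pairs of a clone share 1 value. The main limma fit does not use the pairs, which enter limma only in the alternative with a block. Alternatives covered the pseudocount, minimum level, scaling, technical replicates, covariate, block, trend and each left-out replicate. Promoter sequences are from RefSeq; those of Cdc25c and Wee1 were not used here.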

Additional observations from a re-analysis of the deposited data

Results flagged for a closer look

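In 3 of 20 groups of 4 replicates, which join both clones, 1 replicate stood far from the other 3 on the log2 scale. Chance flags about 1 group in 20 where all values come from 1 population, which need not hold across clones. All flagged replicates are of the exon 4 rescue, and the flags of Cdk4 and Wee1 share a replicate, so they are not independent. Cdk4 in rescue was 6.62 RPKM in replicate 2 of the exon 4 clone. Cdc25c in rescue was 0.209 RPKM in replicate 1 of the exon 4 clone. Wee1 in rescue was 0.128 RPKM in replicate 2 of the exon 4 clone.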

How the results depend on the processing

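Cdk1, Cks1b and Cks2 kept their direction and their call under every alternative in which they were tested (19, 20 and 19), with log2 changes of 0.98 to 2.66, 1.26 to 2.28 and 1.18 to 2.75. Members called higher over both clones numbered 3 with no minimum level, beside 171 of 40885 genes. A minimum of 1 RPKM leaves only Cdk2, Cdk4, Cdk6 and Cks1b, of which 1 was called higher, beside 93 of 7550 genes. With RPKM as deposited 875 genes were higher over both clones. Leaving out 1 replicate gave 174 to 265 genes higher and 4 to 16 lower. Genes called lower numbered 6 with no minimum, 7 with quantile normalization, 6 with library 3 of the exon 6 clone only, 6 with no clone covariate and 27 with same-numbered replicates as a block. In the exon 6 clone alone, members called numbered 0 with no minimum, 1 with a minimum of 1 RPKM, 9 with RPKM as deposited, 1 with library 2 only, and 0 to 1 without 1 exon 6 replicate, beside 0 of 36276, 67 of 7496, 10040 of 16361, 69 of 15755 and 0 to 69 genes called higher. Nothing about the members is read from these counts. The cause was not tested. The block ended the call of Cdc25b in the exon 6 clone alone (limma adjusted p = 0.0562) and changed no other member's call.

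Cdc25b lost its call with no minimum and with no clone covariate (limma adjusted p = 0.0917 and 0.120), Cdc25c with no minimum (0.0541), and Wee1 gained one with RPKM as deposited (0.00784). Cdk2 turned to -0.0074 with quantile normalization and -0.024 with library 3 only, and ranged from -0.089 to 0.23 without 1 replicate. RPKM as deposited, which moves the median of all genes to 0.64, gave 0.89 for Cdk4 and 0.58 for Cdk6, and their signs there cannot be read apart from that shift. Cdk4 turned to 0.019 with library 2 only, with a range of -0.20 to 0.099 without 1 replicate. Cks2 minus Cks1b turned to -0.075 with a pseudocount of 1 and -0.022 as deposited, and ranged from -0.11 to 0.31 without 1 replicate. It moved the other way with a pseudocount of 0.1, where the log2 change was 2.75 for Cks2 and 2.02 for Cks1b. With technical replicates as separate libraries, which are not independent, the differences were 1.43, 1.52 and 1.66 for Cdk1 minus Cdk2, Cdk4 and Cdk6, 1.40 and 0.79 for Cdc25c minus Cdc25a and Cdc25b, and 0.61 for Cdc25b minus Cdc25a, each with an exact permutation p of 0.0167. Permuting over all 8 replicates cannot change the main differences of 1.45, 1.51, 1.65, 1.35, 0.77 and 0.58, and gave each a permutation p of 0.0286. Both p-values are the smallest that their arrangements can give. Depth is unknown, so a floor for the lowest values cannot be given.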
